A study of Mus musculus with 6 samples.

Results

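The set described here holds 10 genes, chosen by name, which encode ubiquitin ligases of T cell tolerance that work without a cullin scaffold, and their adaptors. Members were taken by gene symbol in the platform annotation. 9 of the 10, namely Cbl, Cblb, Rnf128, Peli1, Itch, Nedd4, Nedd4l, Ndfip1 and Ndfip2, had a named probe set, 1 each, among 22206 probe sets. Stub1, the U-box ligase CHIP, had none and was not analysed here. The signals come from 6 mouse Clariom S arrays of regulatory T (Treg) cells, sorted from lymph nodes and spleen by CD4 and by the YFP of the Foxp3-YFP-Cre allele. In 3 arrays the cells came from Foxp3 Cre/wt mice, the controls, and in 3 from Foxp3 Cre/wt mice that also carried Ube2m fl/fl and Ube2f fl/fl alleles, here called deficient. Cre was therefore present in both groups, and deletion was limited to cells that expressed it. All mice were mosaic females aged 8 to 12 weeks, in which the other Treg cells kept a wild-type Foxp3 allele. Each sample pooled 2 to 3 mice, so the n of 3 counts pools.

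Ube2m and Ube2f are the E2 enzymes that transfer NEDD8, the modifier that switches on cullin-RING ligases. The ligases of the set belong to other families. RING ligases such as Cbl and Cblb bring a charged E2 to their target, whereas HECT ligases such as Itch and Nedd4 first take the ubiquitin onto themselves. In T cells most of these enzymes raise the threshold for activation, and loss of Cblb, Itch or Ndfip1 in mice is known to cause autoimmune or inflammatory disease. Their transcripts were compared to see whether the genes of these cullin-free ligases differed when both NEDD8 E2 enzymes were targeted.

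The targeted gene Ube2f fell from 11.88 ± 0.05 to 9.75 ± 0.06 (log2 signal, mean ± SD, n = 3 each, adjusted p = 0.000263 in limma). Where its probes lie relative to the deleted exons was not examined, and Ube2m was not analysed here. The level of silent genes was taken as the 95th percentile of 1091 olfactory receptor probe sets, averaged over the 6 arrays, which was 5.39 on the log2 scale. The sample titles name muscle, but 7 of 8 skeletal muscle markers were at or under this silent-gene reference, and the mean log2 signal of 6 T cell markers ran from 15.67 to 16.09 over the arrays. Of 5 measured Treg markers Ctla4 and Ikzf2 fell, and Foxp3 was not analysed here. Control 1 and deficient 2 lay apart on the second principal component (28.2 and 52.1, against -32.3 to -0.2 for the other 4 arrays), and the mean of 5 natural killer cell markers was also highest there, at 5.68 and 6.17 against 4.46 to 4.99. Of these 5 markers, 3 were at or under the reference, and the brightest was Nkg7 (mean 7.6). All 6 myeloid markers were at or under the reference, with a mean of 4.06 to 4.72 in deficient and 3.98 to 4.04 in control arrays. The mean of 2 CD8 T cell markers was 7.54, 7.19 and 6.48 in deficient and 6.72 to 6.84 in control arrays, with Cd8b1 (mean 8.55) over the reference and the other at or under it, and deficient 1, the highest for Nedd4l, was highest here too. The part of these cells in the results was not tested. A signal from bulk cells cannot tell fewer cells that express a gene from less RNA per cell.

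Nedd4l was the one gene of the set that passed the test. It rose in Ube2m&Ube2f-deficient Treg cells 2.65-fold. The other 8 did not pass, and those 8 had log2 differences (deficient minus control, here and throughout) from -0.88 for Rnf128 to 0.64 for Nedd4. The test was limma on all probe sets, its p adjusted by Benjamini-Hochberg with 0.05 as the threshold. It called 129 probe sets higher, or 0.581%, and 503 lower, or 2.27%, against 1 and 0 of the 9 genes. At an unadjusted p under 0.05 limma gave 4 of the 9 higher and 2 lower, where 12.9% of all probe sets passed in either direction. The methods' t-test gave 3 higher and 2 lower at that level, where 2676 of 22206 probe sets passed in either direction. After adjustment it gave 0 of the 9 genes, and over all probe sets 1 higher and 5 lower. For 5 of the 9 genes the groups did not overlap, against 18.2% of all probe sets. In 3 of these the deficient values were the higher ones (8.22% of all probe sets) and in 2 the lower ones (9.97%). The median log2 difference was -0.04 over the 9 genes and 0.02 over all probe sets. An exact permutation test of 3 against 3 arrays cannot give a two-sided p below 0.1.

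**Figure D1:**
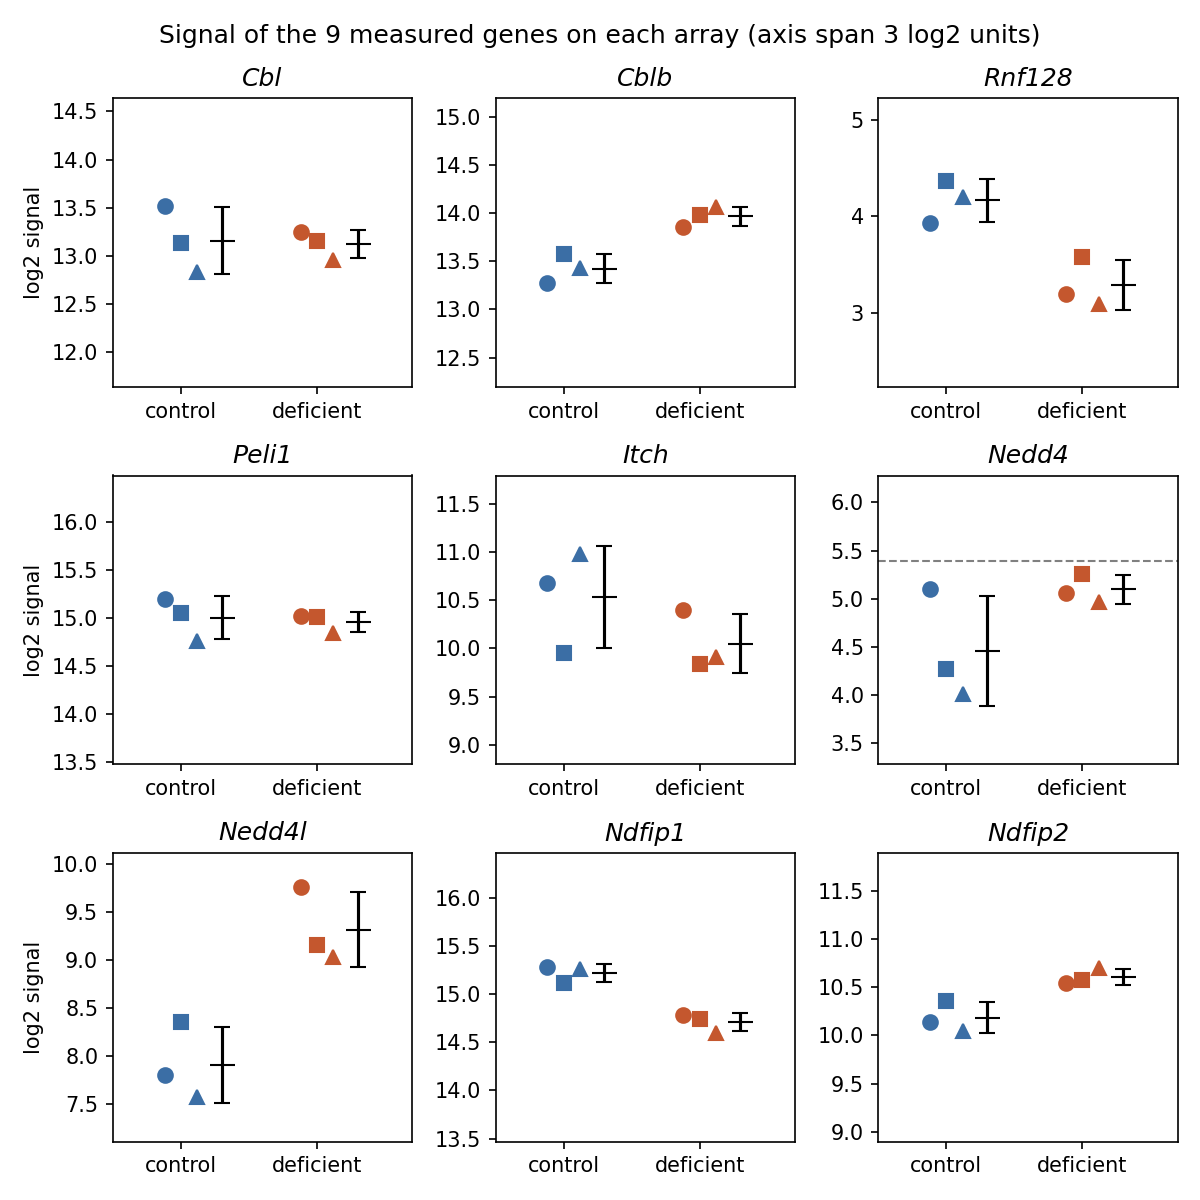
Log2 signal (vertical axis, each panel spanning 3 log2 units around its own middle) of the 9 measured genes on the 3 control (blue) and 3 deficient (orange) arrays, with replicate 1 as a circle, 2 as a square and 3 as a triangle. The bar beside each group is the mean ± SD, and the dashed line in the Nedd4 panel is the silent-gene reference of 5.39; the deficient Nedd4l values (9.03 to 9.76) lie above the control ones (7.58 to 8.35).

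Among the HECT ligases, Nedd4l encodes NEDD4-2, known for removing epithelial sodium channels from the cell surface and for acting on SMAD proteins of the TGF-beta pathway. Its log2 signal was 7.80, 8.35 and 7.58 in the 3 control samples and 9.76, 9.15 and 9.03 in the 3 deficient samples. Every deficient value lay above every control value, with deficient 1 the highest, and all 6 were over the silent-gene reference. The mean went from 7.91 ± 0.40 to 9.31 ± 0.39 (SD, n = 3 each), so that the log2 difference was 1.40 (standard error 0.270), and its 95% confidence interval ran from 0.79 to 2.02. The adjusted p from limma was 0.0297, and that from the two-sided exact permutation test was 0.1. The call depended on single arrays. It was lost without control 1 (adjusted p = 0.105 in limma), control 3 (0.120), deficient 1 (0.106) or deficient 2 (0.0531), and without control 1 and deficient 2 together (0.0987), where the difference was 1.43. With the natural killer marker level as a covariate the difference was 1.39 and the adjusted p 0.0199.

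**Figure D2:**
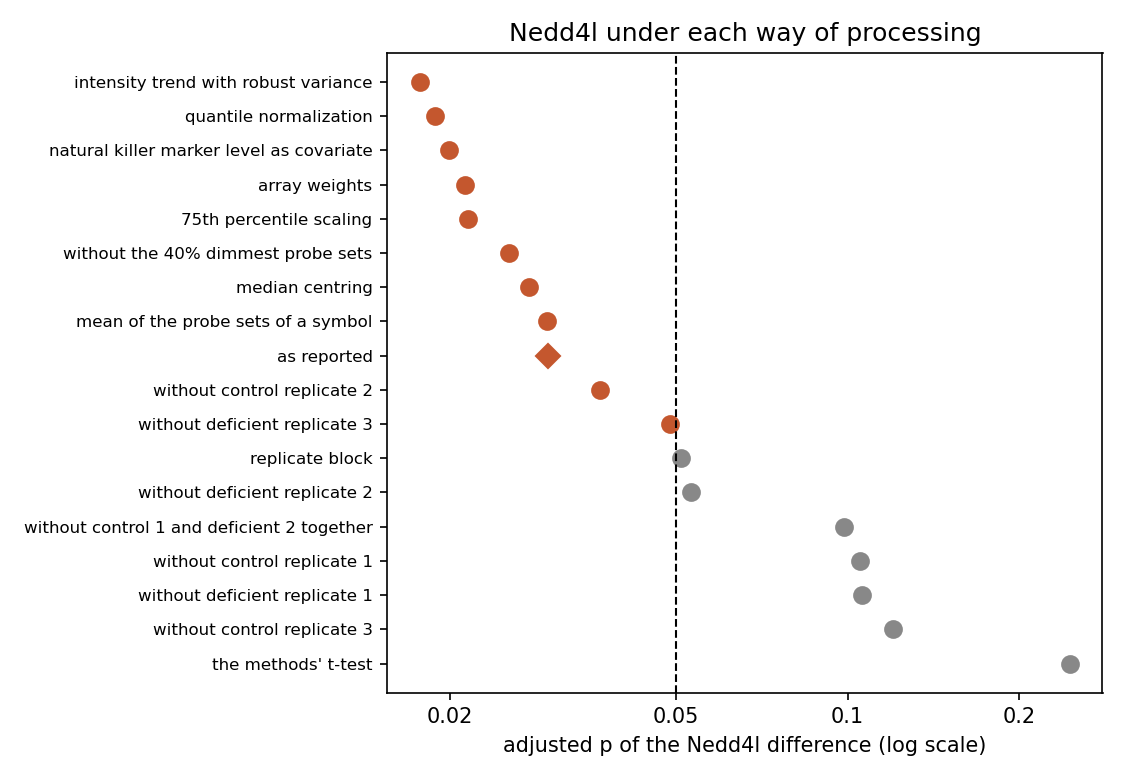
Adjusted p of the Nedd4l difference (horizontal axis, log scale) as reported, shown as a diamond, and under each of 17 alternatives, shown as circles, with the threshold of 0.05 as a dashed line and orange for values under it. 10 alternatives stayed under the threshold and 7 did not, and adjusted p ran from 0.0177 to 0.246.

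The other HECT ligases of the set did not pass. Nedd4, which is known to promote T cell activation by marking Cbl-b for degradation, had a log2 signal of 5.10, 4.27 and 4.01 in control samples and 5.06, 5.26 and 4.97 in deficient samples. The groups overlapped because control 1 reached the deficient values, and both means (4.46 and 5.10) were under the silent-gene reference, the range in which olfactory receptor genes lie. The difference was 0.64 (95% confidence interval from 0.00 to 1.27, adjusted p = 0.388 in limma), and 0.96 without control 1 (adjusted p = 0.0919 in limma). Itch, whose ligase targets the transcription factor JunB and restrains type 2 helper responses, stood at 10.68, 9.95 and 10.98 in control and 10.40, 9.84 and 9.91 in deficient samples. Control 2 was as low as the deficient samples, so the groups overlapped. The Itch difference was -0.49 with an interval from -1.14 to 0.17 (adjusted p = 0.570 in limma), and it was -0.26 without control 3, -0.78 without control 2 and -0.31 without control 1 and deficient 2.

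Ndfip1 and Ndfip2 are membrane adaptors that bind HECT ligases of the Nedd4 family through short proline-rich motifs and release them from an inactive state. Their differences had opposite signs, and neither passed the test. Ndfip1 was at 15.28, 15.11 and 15.26 in control and 14.78, 14.74 and 14.60 in deficient samples. Its deficient values were all lower, and the difference was -0.51 ± 0.169 (standard error), with an interval from -0.89 to -0.13 and an adjusted p of 0.212 in limma. Ndfip2 was at 10.14, 10.36 and 10.05 in control and 10.54, 10.58 and 10.70 in deficient samples. Its deficient values were all higher, and the difference was 0.42 ± 0.176 (standard error), with an interval from 0.02 to 0.82 and an adjusted p of 0.347 in limma. Within each array the log2 ratio of Ndfip2 to Ndfip1 went from -5.03 ± 0.25 in control to -4.10 ± 0.18 in deficient samples (SD, n = 3 each), a change of 0.93 (0.83 to 1.07 without 1 array). The 2 groups did not overlap in this ratio, with p = 0.1 in the exact two-sided permutation test and 0.15 adjusted over the 3 ratios computed. The separation and the p of 0.1 were fixed by the opposite separations of Ndfip1 and Ndfip2 given above, so they are not a further test. Probes differ in brightness, so the change of such a ratio can be read but not its level.

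Among the RING ligases, Cbl and Cblb are close relatives that mark activated receptors and kinases. Cblb, which sets the need for co-stimulation through CD28, had a log2 signal of 13.27, 13.57 and 13.43 in control and 13.86, 13.98 and 14.06 in deficient samples. The deficient values were all higher, and the difference was 0.54 ± 0.176 (standard error), with an interval from 0.14 to 0.94 and an adjusted p of 0.197 in limma (0.115 to 0.532 over the alternatives). Cbl was at 13.52, 13.13 and 12.83 in control and 13.25, 13.16 and 12.96 in deficient samples. These ranges overlapped fully, and the difference of -0.04 had an interval from -0.53 to 0.46 and a sign that turned under quantile normalization and 75th percentile scaling. The within-array log2 ratio of Cblb to Cbl changed by 0.58, from 0.26 ± 0.45 to 0.84 ± 0.25 (SD, n = 3 each), with an exact two-sided permutation p = 0.1 and 0.15 adjusted over the 3 ratios. The change was 0.32 without control 1, the array with the highest Cbl and the lowest Cblb. The third ratio, of Nedd4l to Nedd4, is not read here, because both Nedd4 means were under the silent-gene reference.

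Rnf128 encodes GRAIL, a transmembrane ligase named for its role in anergy, the unresponsive state of T cells that meet antigen without co-stimulation. Its log2 signal was 3.93, 4.37 and 4.20 in control and 3.19, 3.58 and 3.09 in deficient samples. The deficient values were all lower, but all 6 were under the silent-gene reference. The difference was -0.88 ± 0.209 (standard error), with an interval from -1.35 to -0.41 and an adjusted p of 0.0718 in limma, which became 0.0452 with array weights and was not under 0.05 in the other 15 alternatives. Peli1, or Pellino1, is known in T cells for marking the NF-kB subunit c-Rel for degradation. It was at 15.20, 15.05 and 14.76 in control and 15.02, 15.01 and 14.84 in deficient samples, all over the reference. Its groups overlapped, and the difference was -0.05 with an interval from -0.47 to 0.38 and a sign that turned under 75th percentile scaling. Under that scaling the median of all probe sets was 0.14, and the values of 0.07 for Peli1 and 0.08 for Cbl lay below it.

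**Figure D3:**
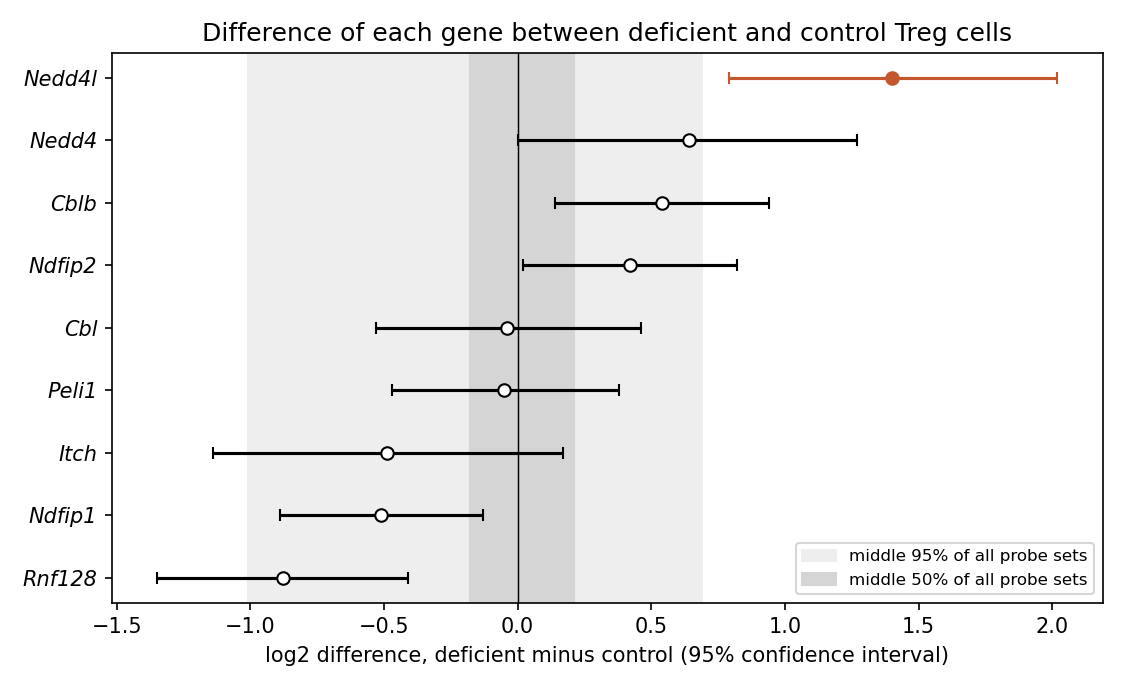
Log2 difference between deficient and control Treg cells (horizontal axis) for each of the 9 genes, with the 95% confidence interval from limma; the filled orange point is Nedd4l, the one gene past the adjusted threshold, and open points did not pass. Grey bands hold the middle 50% (-0.18 to 0.21) and the middle 95% (-1.01 to 0.69) of all probe sets, and Nedd4l at 1.40 is the one gene outside the wider band.

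The 250 bases before the start site of Cblb, Ndfip2 and Rnf128 are shown because the groups did not overlap for these genes and they lay on both sides of 0. None of these genes passed the adjusted threshold, and all Rnf128 values were under the silent-gene reference. The sequences are from RefSeq (build GRCm38.p6), and windows of 7 of the 10 genes were searched. Nedd4l, Ndfip1 and Itch were not among them, although the groups did not overlap for Nedd4l and Ndfip1 either. Capitals mark GGAAA on either strand, the core that NFAT factors bind downstream of the T cell receptor.
Cblb (chr16:52031299-52031548, plus strand): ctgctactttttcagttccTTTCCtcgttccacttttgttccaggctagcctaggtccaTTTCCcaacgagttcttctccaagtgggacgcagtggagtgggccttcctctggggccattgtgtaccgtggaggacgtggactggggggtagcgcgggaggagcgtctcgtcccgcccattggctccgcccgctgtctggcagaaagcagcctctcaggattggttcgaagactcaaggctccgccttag
Ndfip2 (chr14:105258373-105258622, plus strand): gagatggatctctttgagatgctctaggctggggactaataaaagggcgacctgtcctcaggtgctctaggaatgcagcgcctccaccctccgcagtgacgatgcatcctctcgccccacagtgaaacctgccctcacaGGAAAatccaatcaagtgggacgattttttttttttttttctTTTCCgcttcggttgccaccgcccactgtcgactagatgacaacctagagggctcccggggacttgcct
Rnf128 (chrX:139610370-139610619, plus strand): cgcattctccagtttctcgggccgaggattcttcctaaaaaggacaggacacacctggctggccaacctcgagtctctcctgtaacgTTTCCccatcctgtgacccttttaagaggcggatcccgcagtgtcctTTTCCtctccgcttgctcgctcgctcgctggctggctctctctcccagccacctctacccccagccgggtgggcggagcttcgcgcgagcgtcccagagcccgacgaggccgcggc
Each of the 3 windows held 2 matches to GGAAA, which in Rnf128 began 163 and 116 bases before the start, in Cblb 231 and 191, and in Ndfip2 111 and 69. Over all 32851 windows of this length 55.6% held at least 1 match. The forkhead letters GTAAACA, the EGR letters GCGNGGGCG and the AP-1 letters TGANTCA were searched on both strands too, and the 3 windows held 0 matches, against 3.17%, 4.70% and 6.75% of all windows. With 1 motif matched, there was no overlap between motifs in these windows. Among windows searched but not shown, those of Cbl and Nedd4 held the EGR letters, and another Nedd4 window held the AP-1 letters. GGAAA had 3 matches in the window of Cbl, whose groups overlapped, and 2 in the Nedd4 window with the AP-1 letters. The windows of Peli1 and Stub1 and the Nedd4 window with the EGR letters held 0. Matches to GGAAA were therefore not limited to genes whose groups did not overlap. The GC content was 58.8% for Cblb, 53.2% for Ndfip2 and 63.2% for Rnf128, against a median of 52.4% over all windows.

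The profile of Nedd4l over the 6 arrays was most like that of Trp53bp2, Spred2 and Ramp1. Likeness was the root mean square distance between profiles centred on their own means, which was 0.214, 0.219 and 0.231 log2 units for these, among 19504 other genes. Trp53bp2, which encodes a p53-binding protein, went from a log2 signal of 7.65 to 8.72. Spred2, an inhibitor of the Ras to MAP kinase path, went from 10.17 to 11.40. Ramp1, a partner of the receptor for the neuropeptide CGRP, went from 9.37 to 10.48. Spred2 (adjusted p = 0.0129 in limma) and Ramp1 (0.031) passed the test, and Trp53bp2 (0.0567) did not. These genes were chosen for the likeness, so their values are a description.

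Of 67 measured genes in 5 lists of related ligases, partners, targets and anergy genes, limma called 3 higher and 6 lower, or 13.4% against 2.85% of all probe sets (1 to 7 genes when 1 array was left out). The lists were chosen with earlier results of these data known, so this share is a description and not a test of the lists. The 6 HECT ligases of the Nedd4 type outside the set gave 0 calls, also 0 at an unadjusted p under 0.05 in limma, and a median log2 difference of -0.04. Their lowest p belonged to Wwp2 (-0.38, 95% interval from -0.82 to 0.06) and Smurf2 (0.34, from -0.08 to 0.76). Of 10 partners of Cbl proteins, Sla was the 1 that passed, and it fell by 1.05, its log2 signal being 14.13 ± 0.20 in control and 13.08 ± 0.13 in deficient samples (SD, n = 3 each, adjusted p = 0.0193 in limma). Sla encodes the Src-like adaptor, which brings c-Cbl to the T cell receptor complex. Its call was lost without control 1, control 2, deficient 1 or deficient 2 (adjusted p up to 0.0872 in limma) and without control 1 and deficient 2 together (0.104), where the difference was -1.02, and kept with the natural killer covariate (-1.06, 0.0157). Cd2ap, an adaptor that binds Cbl and CD2, was next at 0.76 (adjusted p = 0.138 in limma). The median over the partners was -0.06.

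Of 16 other ligases linked to T cell activation, 1 rose and 1 fell. Dtx1, or Deltex1, a ligase that promotes anergy, rose by 1.37, from 13.27 ± 0.30 to 14.64 ± 0.28 (SD, n = 3 each, adjusted p = 0.0149 in limma). All 3 deficient values (14.94, 14.39 and 14.58) were above the control values (13.60, 13.02 and 13.19). The call of Dtx1 was lost without control 2, control 3 or deficient 1 (adjusted p up to 0.0733 in limma). Rnf149, which belongs to the same family of membrane ligases as Rnf128, fell by 0.95 (adjusted p = 0.0474 in limma), a call lost whichever of the 6 arrays was left out (0.0790 to 0.169) and under each of 3 other scalings (0.0615 to 0.0848). Of the same family, Rnf130 lay on the other side of 0 at 1.02 with groups that did not overlap (adjusted p = 0.0751 in limma), and Rnf167 was at 0.32 with groups that did (0.688). Rnf13 was at -0.31 with groups that overlapped (0.617), and Rnf150 at -0.03 with both means under the silent-gene reference. Rnf130, Rnf167, Rnf13 and Rnf150 were chosen for mention after their values were seen. The count of rises in this list was 2 instead of 1 without deficient 2 and with the natural killer covariate. The median of this list was 0.03, and Peli2 and Peli3, like Rnf150, had both means under the reference.

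Of 20 measured genes whose proteins these ligases are known to bind or ubiquitinate, 1 rose, 0 fell and 19 did not pass, while at an unadjusted p under 0.05 limma gave 3 higher and 2 lower. Rel, the c-Rel subunit that Peli1 acts on, rose by 0.89, from 14.43 ± 0.11 to 15.33 ± 0.22 (SD, n = 3 each, adjusted p = 0.0430 in limma, 0.0758 with median centring and 0.0812 to 0.161 whichever array was left out). Map3k14, which encodes the kinase NIK, stood at 0.67 (adjusted p = 0.209 in limma). Transcripts do not report the protein levels that a ligase would change.

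Of 15 measured anergy genes, 4 fell and 1 rose, with a median of -0.14. Nt5e, the ectoenzyme CD73, fell by 2.56, from 13.33 ± 0.19 to 10.77 ± 0.21 (SD, n = 3 each, adjusted p = 0.000263 in limma), and kept an adjusted p under 0.05 whichever array was left out. The inhibitory receptor Lag3 (-2.55, adjusted p = 0.0320 in limma), the transcription factor Egr2 (-1.43, 0.0158), which is linked to anergy, and Izumo1r, the folate receptor FR4 (-1.22, 0.0165), fell too. The deficient mean of Lag3 (5.38) was at the level of silent genes, so its size is not exact. Ikzf1, the transcription factor Ikaros, rose by 0.97 (adjusted p = 0.0315 in limma) and was chosen for mention after its values were seen, as the one rise of this list. The calls of Lag3 (adjusted p up to 0.129 in limma), Egr2 (0.0794) and Izumo1r (0.0671) were lost without control 2 and without deficient 1. Those of Lag3 and Egr2 were lost without control 3 too, and those of Lag3 and Izumo1r without deficient 3. That of Ikzf1 was lost without each of the 6 arrays in turn (0.0535 to 0.129), and those of Izumo1r and Ikzf1 also without control 1 and deficient 2 together (differences of -1.28 and 0.90, adjusted p = 0.0620 and 0.165 in limma). Both kept their calls with the natural killer covariate (0.0127 and 0.0243).

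**Figure D4:**
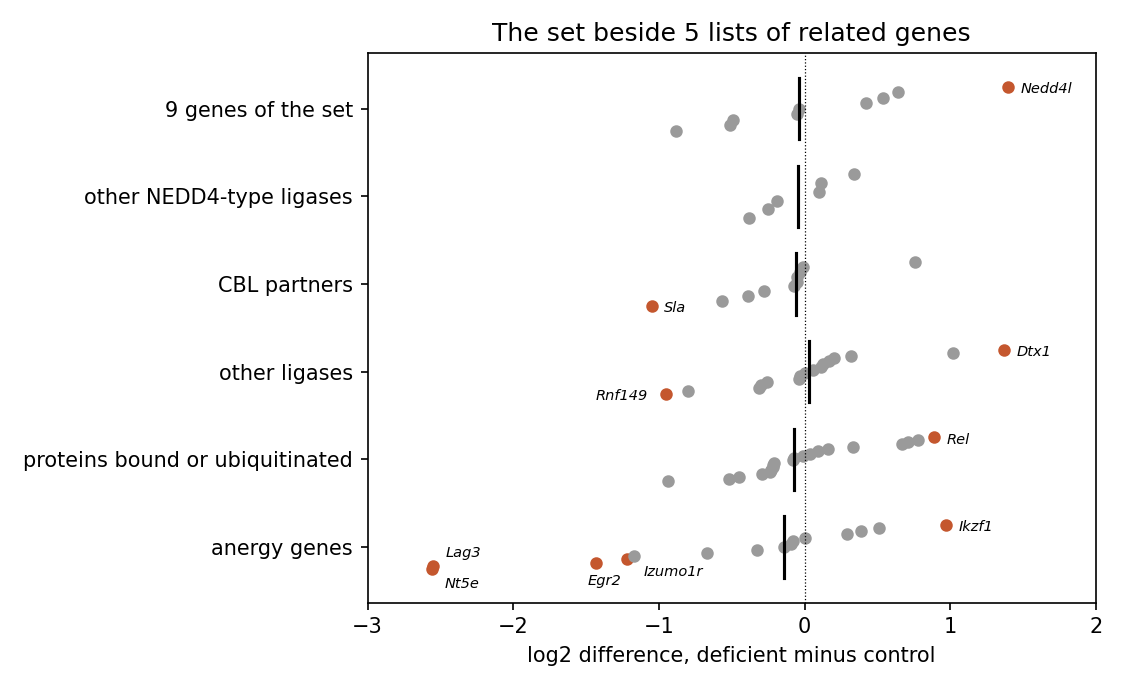
Log2 difference between deficient and control Treg cells (horizontal axis) for the 9 genes of the set and for 5 lists of related genes, with 1 point per gene, the median of each list as a black bar and named orange points for genes past the adjusted threshold. List medians lie between -0.14 and 0.03, and the 9 orange points outside the set are 3 rises and 6 falls.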

How the data were processed

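CD4+YFP+ Treg cells were sorted from lymph nodes and spleen, and RNA was amplified with a pico kit and hybridised to Clariom S arrays, 3 per group. The authors deposited 1 log2 signal per probe set and array, made with Affymetrix Expression Console 1.4 per the submitters' processing notes. How probes were summarised, and in which log base, was not given in the sources used here. Base 2 was taken from values of 2.06 to 19.90 with array medians from 4.89 to 5.11. Scan batches were not examined, since scanner files were not used here. Of 22206 probe sets, 19572 had 1 gene symbol and 2634 were treated as unnamed here, any with several symbols being counted among these. Of several probe sets for 1 gene, the brightest was used.

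Groups were taken from the genotype labels and compared by a linear model with group as its term and moderated variances (lmFit and eBayes of limma 3.58.1, in R 4.3.3), over 22206 probe sets without a filter and with Benjamini-Hochberg adjustment. The fit was tested on simulated data. Whether pools came from separate litters is not given, so p-values measure the spread between these samples. The number of arrays limits the precision. Named were all members, the targeted genes, up to 4 called genes with the largest difference per list (or the 2 with the lowest p), and the 3 profiles nearest to the member with the lowest p. Ikzf1, Rnf130, Rnf167, Rnf13, Rnf150 and genes of the cell marker lists were named besides. Members and lists were chosen with earlier results of these data known.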

Additional observations from a re-analysis of the deposited data

How the results depend on the processing

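Nedd4l kept a higher level in deficient Treg cells in all 17 alternatives (1.18 to 1.62 without 1 array), but its call was lost with the methods' t-test (1.40, adjusted p = 0.246), with the replicate number as a block (1.40, adjusted p = 0.0510 in limma) and without control 1 and deficient 2 together (1.43, a setting chosen after seeing the data, as was the natural killer covariate). The count of genes of the set called higher was therefore 0 instead of 1 with the t-test, with the replicate block and without both arrays, and 0 to 1 without 1 array. The count called lower was 1, Rnf128, with array weights. Same-numbered arrays did not deviate together (correlations of -0.06, -0.24 and 0.29), so the numbers were not taken to pair the samples, and the block changed the calls over all probe sets from 129 to 70 higher and from 503 to 367 lower. The t-test gave 1 higher and 5 lower, and leaving out 1 array gave 46 to 81 higher and 269 to 431 lower, without both arrays 50 and 353. With the natural killer covariate 212 were higher and 611 lower, and 75th percentile scaling moved the split to 180 higher and 384 lower. Of the 67 related genes, 9 were called, against 0 with the t-test, 5 without both arrays and 1 to 7 without 1 array. Among them the block ended the calls of Sla, Rnf149, Rel and Ikzf1 (adjusted p = 0.0663 to 0.112 in limma) and called 5 anergy genes lower instead of 4, which left 6 calls. Median centring ended that of Ikzf1 (0.0545).

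The sign of Cbl turned with quantile normalization (0.04), 75th percentile scaling (0.08), array weights (0.02) and without both arrays (0.12), and its difference ran from -0.20 to 0.14 without 1 array. That of Peli1 turned with 75th percentile scaling (0.07) and without both arrays (0.02), and ran from -0.17 to 0.05 without 1 array. The other 7 genes kept their sign throughout. Without the 40% dimmest probe sets Rnf128 could not be tested. 7 of the 9 genes had both means over the silent-gene reference, also with the 90th and 99th percentile. The cause of these changes was not tested.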
